A study of Rattus norvegicus with 32 samples.

Results

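Notch signalling was followed through 10 genes in RNA from the rat nucleus accumbens shell. They are the Fringe genes Mfng, Lfng and Rfng, the receptor genes Notch1, Notch2 and Notch3, the ligand genes Dll1 and Jag1, and the target genes Hes5 and Hey1. The gene table held 34322 rows. Each of the 10 had 1 row and passed the filter on low counts, as did 17059 genes in all. The family was chosen by measured values, since Mfng had the smallest p of all genes for cannabidiol under the neutral cue, and so values of that comparison are given below as a description and support nothing. By its log2 fold change of -1.16 (SE 0.22), Mfng stood just ahead of Slc25a47, at 4.66 (SE 0.94), and of Sncg, at -3.17 (SE 0.656), in that ranking by p. Slc25a47 was near the floor, with 1 to 4 counts per vehicle library and 1 to 353 per cannabidiol library under that cue. The other 9 of the 10 genes were taken as members of the same pathway as Mfng.

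All rats were wild type and had been through fear conditioning, in which shocks came with a neutral cue or with lemon odour, called the anxiety cue here. Vehicle or cannabidiol (CBD, a cannabis compound that does not intoxicate) came before tests of anxiety in the presence of the cue, and tissue was taken after a last shock. Each cue was combined with vehicle and with CBD, which made 4 groups with 8 libraries in each. The labels give no dose, strain, sex, age, batch or animal, so p-values measure the spread between these libraries, which may be partly technical.

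Notch receptors sit in the membrane of one cell and are engaged by Delta or Jagged ligands on a neighbouring cell. Engagement lets ADAM proteases and then gamma-secretase cut the receptor, and the released intracellular part enters the nucleus, where it joins the DNA-binding protein RBPJ and Mastermind-like coactivators at target genes such as Hes5 and Hey1. The Fringe proteins are glycosyltransferases of the Golgi that add N-acetylglucosamine to O-linked fucose on the receptor, which alters how well it answers Delta as against Jagged ligands. In the adult brain, Notch signalling is best known from neural stem cells, astrocytes, cells of the oligodendrocyte lineage and the walls of blood vessels, and it also acts in neurons.

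RBPJ binds a core with the letters GTGGGAA. Windows of 250 bases before the start of the gene, from RefSeq on the assembly GRCr8, were at hand for 8 of the 10 members. Mfng and Hey1 had no window and were not searched. The letters, on either strand (TTCCCAC on the other), were in 3 of these 8 windows, and in 5.27% of 33469 windows of the same length. Those 3 are printed because they belong to a Fringe gene, a ligand gene and a target gene described below. Each is written 5′ to 3′ on the strand of its gene, with the matched letters in capitals and with chr12:19152919-19153168 (minus strand) for Lfng, chr1:64993275-64993524 (minus strand) for Dll1 and chr5:170804327-170804576 (plus strand) for Hes5.
Lfng: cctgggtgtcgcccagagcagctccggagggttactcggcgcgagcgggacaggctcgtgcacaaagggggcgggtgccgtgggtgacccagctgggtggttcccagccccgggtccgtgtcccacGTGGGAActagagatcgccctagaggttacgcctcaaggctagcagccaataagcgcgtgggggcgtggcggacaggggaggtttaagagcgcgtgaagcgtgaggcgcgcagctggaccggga
Dll1: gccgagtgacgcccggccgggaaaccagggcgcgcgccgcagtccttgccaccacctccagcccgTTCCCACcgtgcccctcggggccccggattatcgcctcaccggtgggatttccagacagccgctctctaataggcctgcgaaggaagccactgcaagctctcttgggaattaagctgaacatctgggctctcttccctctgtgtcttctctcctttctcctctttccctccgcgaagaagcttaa
Hes5: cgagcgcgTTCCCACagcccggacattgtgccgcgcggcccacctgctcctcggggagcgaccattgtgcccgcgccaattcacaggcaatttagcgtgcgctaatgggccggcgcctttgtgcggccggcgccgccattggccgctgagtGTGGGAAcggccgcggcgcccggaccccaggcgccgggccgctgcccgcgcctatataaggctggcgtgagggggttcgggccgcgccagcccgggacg
The Lfng window holds 1 match, 124 to 118 bases before the start. That of Dll1 holds 1 match on the opposite strand, 185 to 179 bases before it. Hes5, the target gene whose product represses neuronal differentiation, has 2 matches, 242 to 236 bases before the start on the opposite strand and 99 to 93 bases before it on its own strand. A pair of matches or more was found in 0.185% of all windows. A match describes letters in the reference and not bound protein, which was not measured here.

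Total counts were 11.65 to 24 M per library. Markers of medium spiny neurons, the main cells of the accumbens, summed to between 1515 and 9630 CPM (a gene's share of the scaled library total). Tissue with these neurons was thus present in each library, at unequal levels. Whether it came from the shell or from other parts of the striatum was not tested. Slc17a6, a glutamate transporter gene of subcortical neurons outside the striatum, reached 20 CPM or more in 5 libraries, namely 3 of the vehicle neutral-cue group, 1 of the vehicle anxiety-cue group, 1 of the CBD anxiety-cue group and none of the CBD neutral-cue group. The level of 20 CPM was set with the data known, and a sixth library, of the CBD anxiety-cue group, lay just below it at 19.6 CPM. Slc17a7, the transporter gene of cortical neurons, stood at 938 CPM in 1 CBD neutral-cue library. Bulk RNA cannot tell fewer cells of a type from less RNA per cell, and CPM is not scaled by transcript length, so levels are compared between libraries and not between genes.

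Mfng (manic fringe) was the Fringe gene with the widest spread between libraries, 2.33 to 11.3 CPM, or 39 to 234 counts. In vehicle neutral-cue libraries it ranged from 4.77 to 11.3 CPM with a median of 7.30. The CBD neutral-cue libraries ranged from 2.33 to 4.44 CPM with a median of 3.11. No library of the one group reached the other: each vehicle library was above each CBD library. In the anxiety-cue groups Mfng ranged from 3.40 to 10.5 CPM (median 3.86) with vehicle and from 3.52 to 7.47 CPM (median 4.06) with CBD. Those 2 groups overlapped, and in each of them 1 library, the one high in Slc17a6, was the highest.

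**Figure D1:**
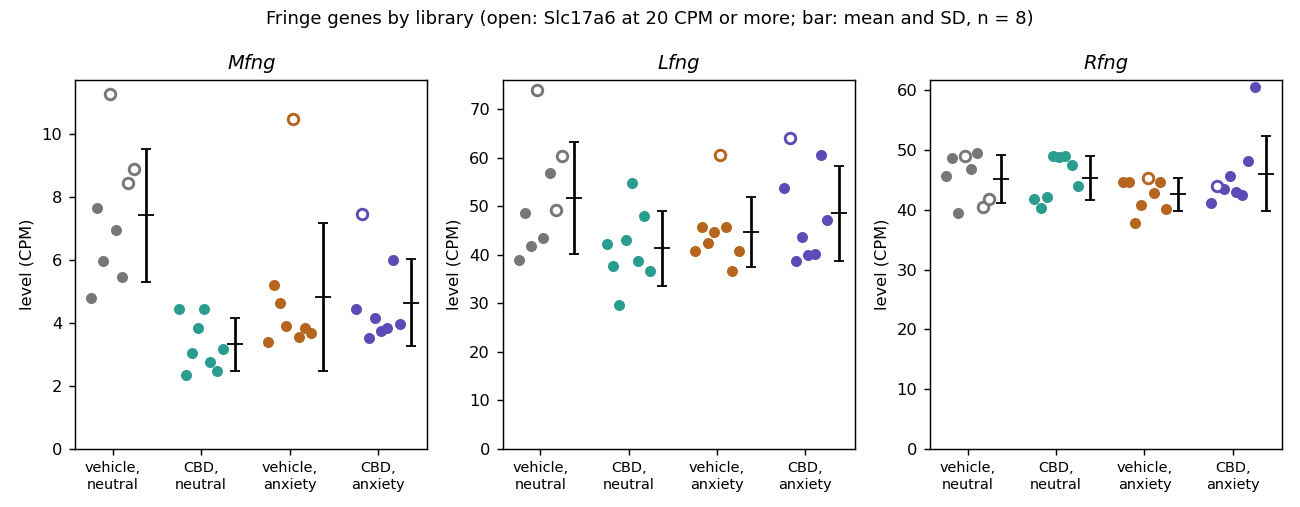
Levels of Mfng, Lfng and Rfng in CPM on linear axes that start at 0, one point per library in the 4 groups, with the mean and SD (n = 8) beside each group and open points for the 5 libraries with Slc17a6 at 20 CPM or more. For Mfng the CBD neutral-cue points end at 4.44 CPM, below the lowest vehicle neutral-cue point at 4.77 CPM, and the open points are the highest of their groups.

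Under the neutral cue the mean of Mfng was 7.42 ± 2.11 CPM (SD, n = 8) with vehicle and 3.31 ± 0.835 CPM with CBD, a ratio of 0.447. This is the comparison that chose the gene. Groups that do not overlap in it were found for 1 member, Mfng, and for 0.106% of the 17059 genes tested. Under the anxiety cue the means were 4.83 ± 2.35 CPM with vehicle and 4.64 ± 1.38 CPM with CBD. These 16 libraries gave no value to the difference that chose the gene. They did enter the choice through the spread, which the fit took from all 32 libraries. The log2 fold change there was -0.06 (SE 0.216, 95% interval -0.497 to 0.384), with an adjusted p of 0.9999 in edgeR's quasi-likelihood test and p = 0.990 in an exact 2-sided permutation test of log2 CPM over 12870 splits. The CBD effect differed between the cues by 1.11 (SE 0.307) on the log2 scale, a description since 1 of its terms chose the gene.

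The anxiety cue against the neutral cue was at -0.62 (SE 0.215) for Mfng among vehicle libraries and at 0.49 (SE 0.22) among CBD libraries. Both share 8 libraries with the comparison that chose the gene, and neither is tested here. With covariates for tissue composition (the mean log2 CPM of subcortical, cortical, oligodendrocyte and choroid plexus markers) these values were -0.36 and 0.168.

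The level of Mfng moved with tissue markers. It was 7.47 to 11.3 CPM in the 5 libraries high in Slc17a6 and 2.33 to 7.64 CPM in the other 27. Without those 5 libraries and the one high in Slc17a7, the ranges under the neutral cue were 4.77 to 7.64 CPM with vehicle (n = 5) and 2.33 to 4.44 CPM with CBD (n = 7). Libraries left out of groups that do not overlap cannot make them overlap, so nothing is read from these ranges. The log2 difference without these libraries was -0.867. It was -0.612 with the composition covariates and -0.809 with Alb and Plin1, a liver and a fat gene, as covariates. In the same comparison 7 of 9 subcortical markers were below 0 (median -0.905), 12 of 12 medium spiny neuron markers were above 0 (median 0.524), and 8 of 8 markers of oligodendrocyte precursors were below 0 (median -0.248). The precursor markers, none of them at 0 in all libraries, summed to 644 to 891 CPM with vehicle and to 434 to 739 CPM with CBD. Other lists differed too. All 10 oligodendrocyte markers (median -0.407), 12 microglia markers (-0.227), 6 fibroblast markers (-0.954) and 6 adipocyte markers (-3.54) were below 0, while 4 of 5 hepatocyte markers (median 3.94) and 3 of 3 cortical markers (1.51) were above 0. The part of the precursor, microglia and fibroblast markers in the Mfng difference was not tested.

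Lfng (lunatic fringe), the Fringe gene of the segmentation clock in the embryo, was less spread. It ranged from 39.0 to 73.9 CPM (median 49.0) in vehicle neutral-cue libraries and from 29.6 to 54.9 CPM (median 40.4) in CBD neutral-cue libraries. With the anxiety cue it ranged from 36.7 to 60.7 CPM (median 43.6) with vehicle and from 38.7 to 64.0 CPM (median 45.4) with CBD. All 4 ranges overlapped. The difference of CBD from vehicle was -0.32 (SE 0.131) under the neutral cue, in the direction of Mfng, and 0.12 (SE 0.131) under the anxiety cue, where edgeR gave an adjusted p of 0.9999. The difference between these effects, 0.44 (SE 0.186), did not pass (edgeR, adjusted p = 0.336). Under the neutral cue the value was -0.0473 with the composition covariates. Under the anxiety cue it was 0.0507 without CBD anxiety-cue library 2 and 0.194 without vehicle anxiety-cue library 5. Like Mfng, Lfng was high in the libraries high in Slc17a6, at 49.3 to 73.9 CPM against 29.6 to 60.7 CPM in the other 27.

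Rfng (radical fringe) was the steadiest member, with 1.6 times between its lowest and highest library. Its ranges were 39.5 to 49.4 CPM for vehicle and 40.3 to 49.0 CPM for CBD under the neutral cue. Under the anxiety cue they were 37.8 to 45.3 CPM and 41.1 to 60.6 CPM, the last value from 1 library that stood apart. CBD against vehicle was at 0.00 (SE 0.0691) with the neutral cue and at 0.11 (SE 0.0691) with the anxiety cue, the latter with an adjusted p of 0.9999 in edgeR and p = 0.155 in the exact permutation test. Its interval under the anxiety cue, -0.0282 to 0.253, leaves out changes larger than that. Without the library that stood apart, number 8 of its group, the value was 0.0468, and without library 1 of that group it was 0.135.

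Dll1, a Delta ligand, ranged from 5.57 to 8.58 CPM (median 7.32) in vehicle neutral-cue libraries, 4.98 to 8.07 CPM (7.07) in CBD neutral-cue, 5.67 to 9.33 CPM (7.11) in vehicle anxiety-cue and 4.63 to 8.89 CPM (6.84) in CBD anxiety-cue libraries. The 4 groups covered nearly the same range. Of the members, Dll1 had the most negative estimate for CBD under the anxiety cue, -0.21 (SE 0.139), which did not pass (edgeR, adjusted p = 0.9999; exact permutation p = 0.172). Jag1, a Jagged ligand, ranged from 3.78 to 11.2, 3.66 to 9.94, 4.97 to 8.08 and 3.56 to 8.18 CPM in the same order of groups. Its highest libraries were in the neutral-cue groups, and its estimates in the 3 comparisons open to a test lay between -0.08 and 0.02. Reads of Dll1 could be shared with Fam120b, and reads of Hes5 with Pank4, since these genes overlap in the RefSeq annotation and strand-specific counting is not stated.

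Notch1 ranged from 31.4 to 61.8 CPM (median 49.6) in vehicle neutral-cue, 41.2 to 61.9 CPM (45.6) in CBD neutral-cue, 42.8 to 60.3 CPM (52.3) in vehicle anxiety-cue and 40.6 to 61.1 CPM (51.0) in CBD anxiety-cue libraries. Notch2 ranged from 22.9 to 39.7, 28.4 to 41.1, 30.4 to 42.6 and 28.9 to 56.2 CPM in that order. Notch3, the receptor of vascular smooth muscle and pericytes, ranged from 23.5 to 45.7, 25.7 to 39.9, 28.8 to 43.1 and 25.9 to 35.4 CPM. For all 3 receptors the groups overlapped, with the widest range among vehicle neutral-cue libraries for Notch1 and Notch3 and among CBD anxiety-cue libraries for Notch2.

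The receptors shared a direction in one comparison without passing it. With the anxiety cue against the neutral cue in vehicle libraries, Notch1 was at 0.12 (SE 0.105), Notch2 at 0.17 (SE 0.118) and Notch3 at 0.20 (SE 0.106). Notch2 was at 0.111 and Notch3 at 0.0891 without the libraries high in Slc17a6 or Slc17a7, and Notch1 at 0.0468 without vehicle neutral-cue library 6. With Alb and Plin1 as covariates the values were higher, at 0.188 for Notch1, 0.222 for Notch2 and 0.2695 for Notch3. The smallest adjusted p of the 3 was that of Notch3, 0.406 in edgeR. Markers of mural cells lay on the same side there, 8 of 10 above 0 (median 0.187), as did 9 of 11 endothelial markers (median 0.0655), and their part in the receptor values was not tested. CBD against vehicle under the anxiety cue put the 3 receptors at -0.02, 0.10 and -0.09, all within 1 SE of 0.

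**Figure D2:**
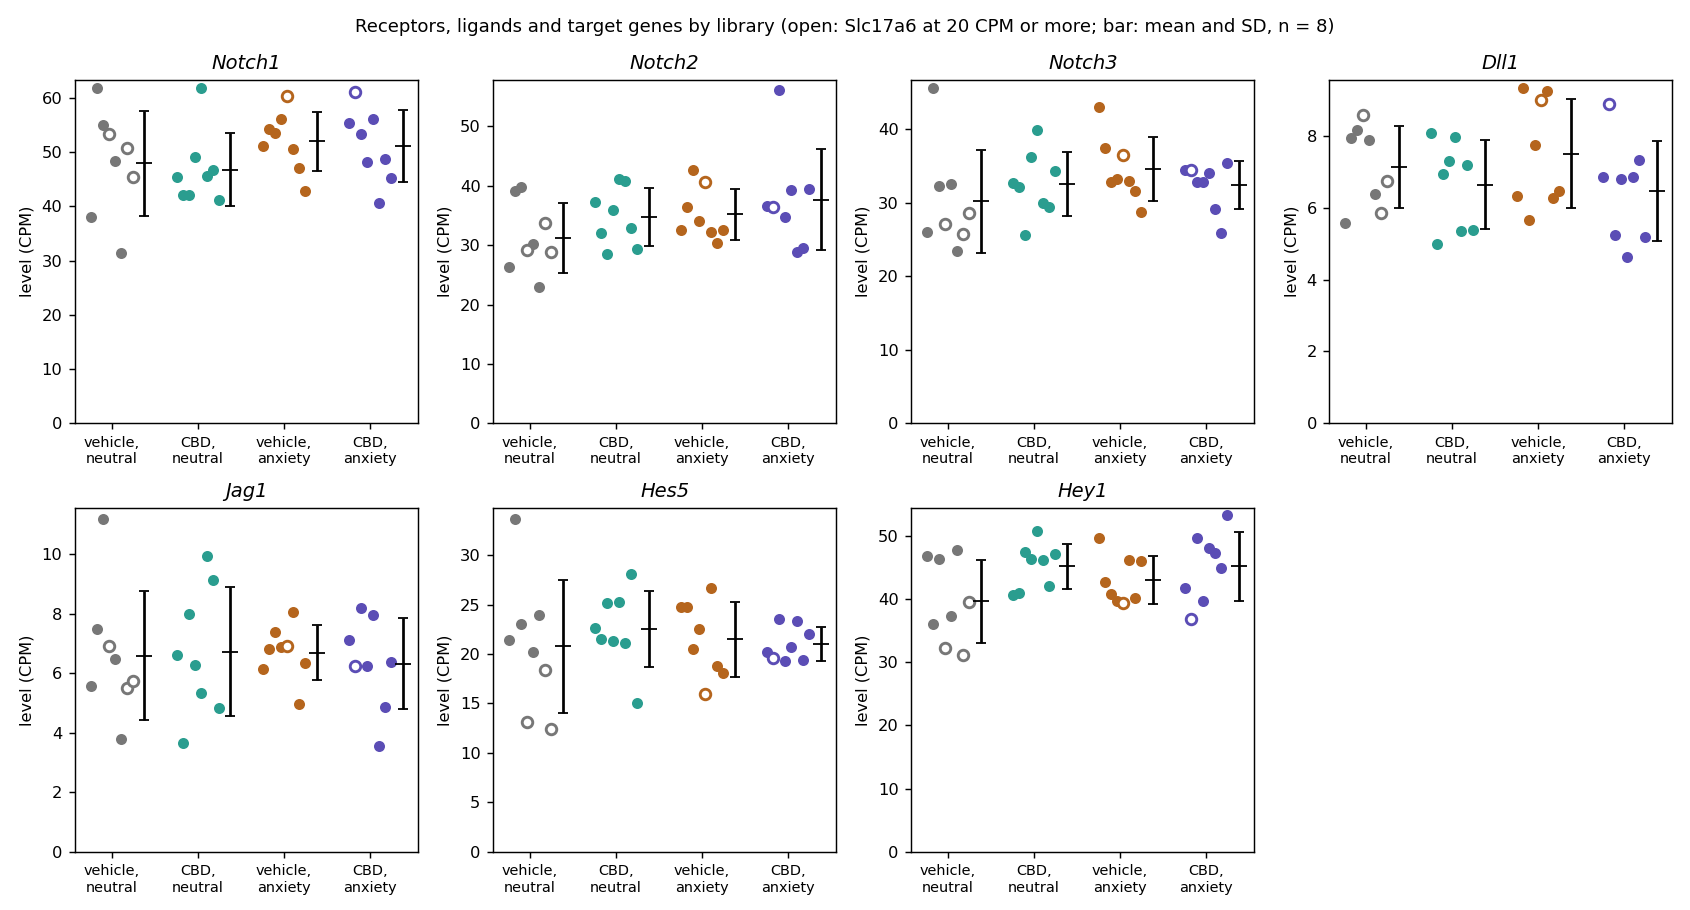
Levels of the 3 receptor, 2 ligand and 2 target genes in CPM on linear axes that start at 0, one point per library in the 4 groups, with the mean and SD (n = 8) and open points for the 5 libraries with Slc17a6 at 20 CPM or more. All groups overlap, and the open points lie low for Hes5 and Hey1.

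Hes5, a Notch target of neural stem cells and astrocytes, ranged from 12.4 to 33.7 CPM (median 20.8) in vehicle neutral-cue, 15.1 to 28.04 CPM (22.1) in CBD neutral-cue, 15.9 to 26.6 CPM (21.5) in vehicle anxiety-cue and 19.3 to 23.5 CPM (20.5) in CBD anxiety-cue libraries. The medians lay close together. In the comparisons open to a test its estimates were -0.03 (SE 0.145) for CBD under the anxiety cue, 0.05 (SE 0.145) for the cue in vehicle libraries and -0.10 (SE 0.145) for the cue in CBD libraries. Hey1, a target best known from blood vessels and also expressed in neurons, ranged from 31.2 to 47.8 CPM (median 38.4), 40.7 to 50.7 CPM (46.3), 39.4 to 49.7 CPM (41.8) and 36.8 to 53.3 CPM (46.1) in the same order. CBD against vehicle was at 0.19 (SE 0.0855) under the neutral cue, opposite in sign to Mfng, and at 0.07 (SE 0.0852) under the anxiety cue. The neutral-cue value was 0.0253 with the composition covariates. In the 5 libraries high in Slc17a6, both target genes were low, Hes5 at 12.4 to 19.6 CPM against 15.1 to 33.7 CPM in the other 27 and Hey1 at 31.2 to 39.5 CPM against 36.0 to 53.3 CPM.

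Counted over the members, none of the 10 passed an adjusted p of 0.05 in edgeR for CBD under the anxiety cue, where 0% of the 17059 genes passed. At an unadjusted p of 0.05 it was 0 of 10 beside 1.58% of all genes, 270 genes. The median of the members there was -0.029 on the log2 scale and that of all genes tested -0.0033. Mfng is left out of the counts for the cue. For the cue in vehicle libraries 0 of the other 9 passed beside 0%, and 0 were under the unadjusted threshold beside 12.7% of all genes (2175). In CBD libraries, likewise, the cue gave 0 of 9 past it beside 0%, and 0 were under the unadjusted threshold beside 3.94% (672).

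Under the neutral cue, the comparison that chose Mfng, CBD gave 0 of 10 past the adjusted threshold beside 0% of all genes, and 3 under the unadjusted one (Mfng and Lfng lower, Hey1 higher) beside 22.6% (3852). Nothing is read from that count. DESeq2, run on the same counts, called 349 genes in this comparison, Mfng the one member among them, and 0 genes in the other 3. For the difference between the CBD effects of the 2 cues, 0 of the 9 members other than Mfng passed in edgeR beside 0%, and 1 (Lfng, positive) was under the unadjusted threshold beside 13.8% (2353).

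**Figure D3:**
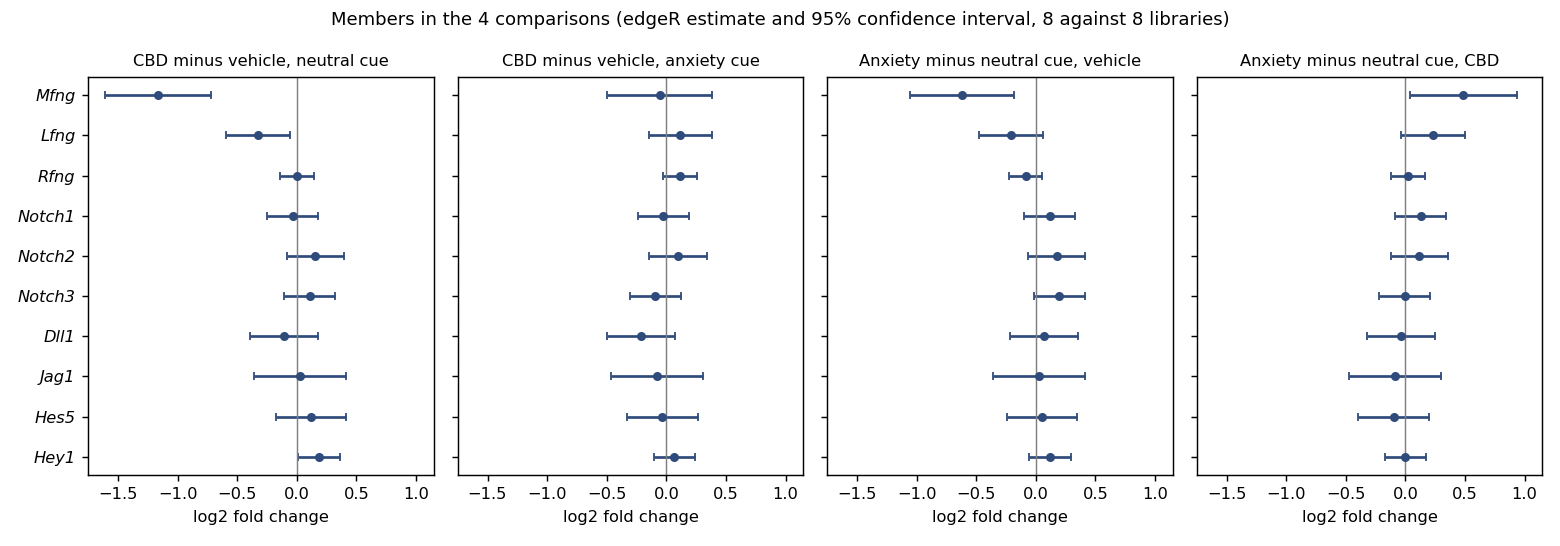
Log2 fold changes of the 10 members in the 4 comparisons of 8 against 8 libraries, with 95% intervals from edgeR, on 1 common axis. Mfng lies at -1.16 for CBD under the neutral cue, at -0.06 for CBD under the anxiety cue and at -0.62 and 0.49 for the cue in vehicle and in CBD libraries, and among the other members the value farthest from 0 is that of Lfng, -0.32 for CBD under the neutral cue.

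The wider pathway was read from a list of 68 genes in 7 roles, of which 65 had counts enough to be tested. Dll3, Gxylt2 and Hes3 had too few. None of the 65 passed an adjusted p of 0.05 in edgeR in any of the 4 comparisons. For CBD under the anxiety cue, 0 of 65 were under the unadjusted threshold, and the median was -0.029 beside -0.0033 for all genes. The 9 genes of Notch proteolysis, which include the gamma-secretase subunits and the ADAM proteases, were all below 0 in edgeR's estimates, with a median of -0.037. The 5 genes with the smallest p were Crebbp, a histone acetyltransferase (-0.10, SE 0.0579), Rfng, Dll1, Dlk2, a non-canonical ligand (0.17, SE 0.127), and Hes6, a Hes family gene of neuronal differentiation (0.27, SE 0.217). Each had an adjusted p of 0.9999 in edgeR.

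For the cue in vehicle libraries, 10 of the 55 listed genes that are not members were under the unadjusted threshold, 7 above 0 and 3 below, which is 18.2% beside 12.7% of all genes. Nuclear cofactors, a role of 16 genes with 8 above 0 and 8 below, made up 5 of them, 4 above 0 and 1 below. The 1 below was Ctbp2, a corepressor gene, at -0.50 (SE 0.229). Spen, a corepressor scaffold that binds RBPJ, ranged from 77.4 to 119 CPM with the neutral and from 109 to 133 CPM with the anxiety cue (log2 difference 0.30, SE 0.095, edgeR adjusted p = 0.374). Ep300, a histone acetyltransferase that works with Mastermind-like proteins, was at 0.19 (SE 0.0649) and Maml1, one of those proteins, at 0.24 (SE 0.0961). Hes6 was at -0.61 (SE 0.217), from a range of 10.3 to 29.4 CPM with the neutral cue to one of 5.70 to 19.7 CPM with the anxiety cue. The ranges of each of these genes overlapped.

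In CBD libraries the cue left 5 of these 55 under the unadjusted threshold, 2 above 0 and 3 below, or 9.09% beside 3.94% of all genes. Mfng aside, the smallest p-values belonged to Xxylt1, a xylosyltransferase of Notch sugars (0.19, SE 0.0721), Fbxw7, part of the ubiquitin ligase that marks the Notch intracellular domain (-0.27, SE 0.102), Ncor1, a corepressor (-0.20, SE 0.0826), and Dll4, the Delta ligand of endothelial cells (0.42, SE 0.198). Each had an adjusted p of 0.995 in edgeR. Dll4 was scarce, 0.668 to 2.38 CPM over all libraries. CBD under the neutral cue put 13 of the 55 under the unadjusted threshold, or 23.6% beside 22.6% of all genes. In that comparison the 5 with the smallest p were Mfng, Ncor1 at 0.26, the corepressor gene Ctbp2 at -0.71, Ep300 at 0.19 and Spen at 0.27, given as values only.

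**Figure D4:**
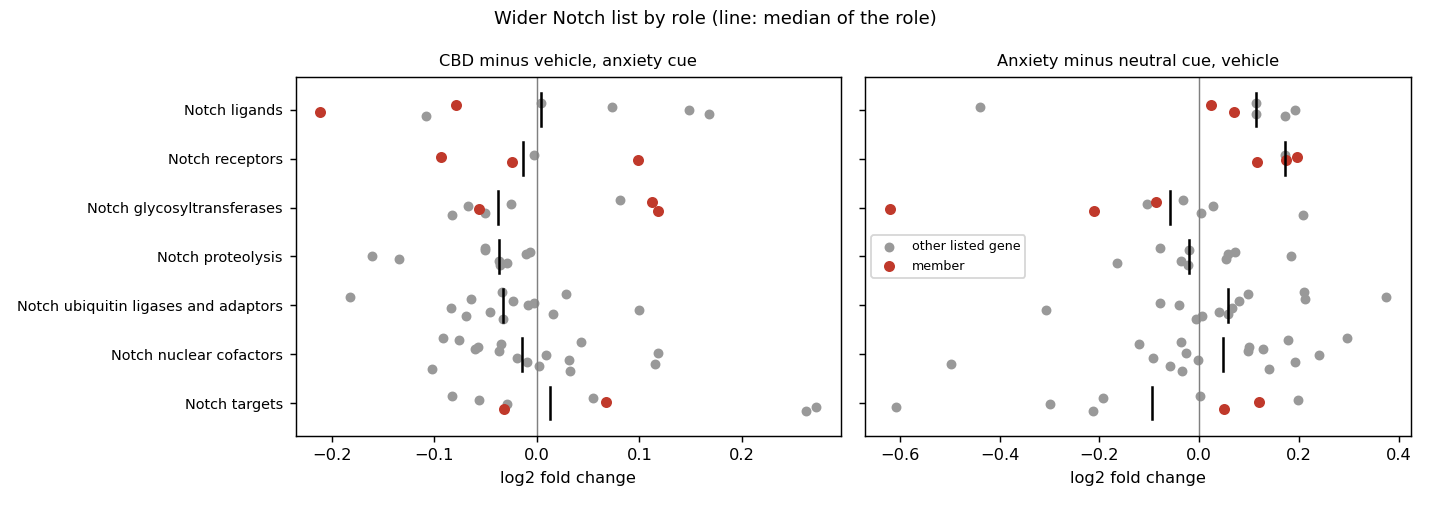
Log2 fold changes of the 65 tested genes of the wider list, one point per gene, by role, for CBD under the anxiety cue and for the cue in vehicle libraries, with the 10 members in red and a line at the median of each role. The medians of the roles lie between -0.038 and 0.012 in the first panel, and all 4 receptor genes lie above 0 in the second, with a median of 0.173 and none past the adjusted threshold.

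Members also varied between libraries of the same group, and this variation was set beside 7 lists of cell type markers. The lists were those of subcortical neurons, medium spiny neurons, oligodendrocyte precursors, endothelial cells, mural cells, astrocytes and microglia. Oligodendrocyte markers were not among them, so a relation to precursor markers cannot be told from one to oligodendrocytes. After group means were subtracted, Pearson's r and Spearman's rho were taken over the 27 libraries with Slc17a6 under 20 CPM, with permutation p-values within groups adjusted over the 70 relations of 10 members and 7 lists. Of the 70, 6 had an adjusted p under 0.05 for r. Mfng went with the precursor markers at r = 0.648 and rho = 0.626, and r was 0.660 without the 2 libraries farthest from the median of the markers. This relation is among the 6, but neutral-cue libraries that chose Mfng are among the 27, so it is a description. Mfng was also at r = -0.489 with medium spiny neuron markers and at 0.451 with subcortical markers, neither among the 6. Over all 32 libraries its r was 0.773 with precursor, -0.811 with medium spiny neuron and 0.764 with subcortical markers. Hey1 went the other way from Mfng with the precursor markers, at r = -0.561 and rho = -0.613 (permutation, adjusted p = 0.0341 and 0.0336; r = -0.621 without 2 libraries).

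Notch1 and Notch3 went with endothelial markers. Notch1 and endothelial markers gave r = 0.685 and rho = 0.656 (permutation, adjusted p = 0.0341 and 0.0387; r = 0.654 without 2 libraries). Notch1 and mural markers gave r = 0.645 and rho = 0.594 (adjusted permutation p = 0.0341 and 0.0544; r = 0.539 without 2 libraries), so that this relation passed by r alone. Notch3 and endothelial markers gave r = 0.645 and rho = 0.615 (adjusted permutation p = 0.0341 and 0.0477; r = 0.589 without 2 libraries). Notch3 and mural markers gave r = 0.560 and rho = 0.551, which did not pass (adjusted permutation p = 0.0803 and 0.0610, and r = 0.442 without 2 libraries). Hey1 and medium spiny neuron markers gave r = 0.575 and rho = 0.714 (adjusted permutation p = 0.0341 and 0.0091; r = 0.671 without 2 libraries). All genes of a library share its depth and its dissection.

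**Figure D5:**
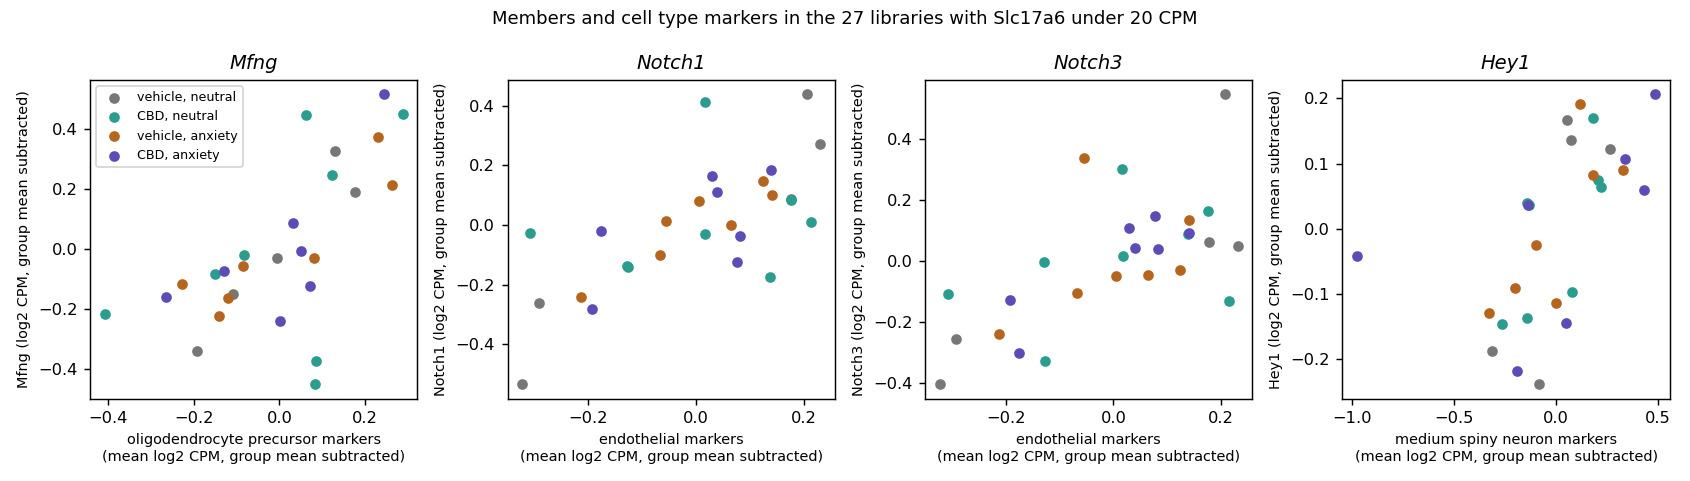
Log2 CPM of Mfng, Notch1, Notch3 and Hey1 against the mean log2 CPM of a marker list, both with group means subtracted, for the 27 libraries with Slc17a6 under 20 CPM, coloured by group. Points rise from left to right in all 4 panels, with r of 0.648, 0.685, 0.645 and 0.575, and in the Hey1 panel 1 library lies far to the left.

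Over all 32 libraries, with group means subtracted, the genes most like Mfng by Pearson correlation of log2 CPM included Trim26 (0.925), Cntn2 (0.898), Micall1 (0.898) and Slc6a11 (0.894). Slc6a11 encodes a GABA transporter, and Cntn2 encodes an adhesion molecule of axons. Over the 27 libraries with Slc17a6 under 20 CPM these values were 0.765 to 0.868. Those most like Lfng were Paqr7, Dennd5a, Castor2, Prr5 and Tpm4, between 0.837 and 0.846 (0.701 to 0.755 over the 27). Notch3 was most like Wiz, Setd1b, Syvn1, Lama5 and Cic (0.760 to 0.774, and 0.801 to 0.890 over the 27). Hes5 was most like Ehmt2, Zbtb17, Mxd4, Tmem161a and Zfp523 (0.800 to 0.830, and 0.597 to 0.712 over the 27). These genes were picked for their likeness, so no p is given.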

How the data were processed

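The authors deposited whole-number read counts for each gene, from RNA selected for polyA per the labels' protocols. STAR, featureCounts and DESeq2 are named in the submitters' processing notes, with the builds mRatBN7.2 and Rnor_6.0 and no role for either. Versions and strand are not given in the sources used here. Libraries were grouped by their treatment label, and numbers within a group follow the order of deposition. The members and the gene lists were chosen with earlier results of these data known.

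Counts were fitted with edgeR 4.0.16 (R 4.3.3): filterByExpr, TMM scaling, a mean per group over all 32 libraries, quasi-likelihood tests and Benjamini-Hochberg adjustment over 17059 genes, threshold 0.05. The log2 CPM used for permutation tests and correlations carried a prior count of 2. The model was tested on simulated data. No 2 libraries of a group agreed within sampling noise. Named genes are the 10 members, in each comparison the 5 genes of the wider list with the smallest p, and the 5 genes most like each of Mfng, Lfng, Notch3 and Hes5, of which 1 is not reported here. Alternatives were DESeq2 1.42.0, its size factors in edgeR, no filter, robust estimation, a filter of 1 CPM in 8 libraries, the 2 compared groups alone, covariates for tissue composition or for Alb and Plin1 (a liver and a fat gene), and leaving out libraries.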

Additional observations from a re-analysis of the deposited data

Results flagged for a closer look

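In 6 of 40 sets of 8 libraries (10 members in 4 groups), the highest library was far from the next one relative to the range of its group. Chance gives about 1 in 20 for independent sets of normal values. CPM were not on a log scale and the sets share libraries, so no excess is read from this count. Mfng stood at 10.5 CPM in vehicle anxiety-cue library 5, where the other 7 ranged from 3.40 to 5.19, and Lfng stood at 60.7 CPM in the same library, where the others ranged from 36.7 to 45.8. That library had Slc17a6 at 45.7 CPM. Rfng was at 60.6 CPM in CBD anxiety-cue library 8 (others 41.1 to 48.2), and Notch2 at 56.2 CPM in CBD anxiety-cue library 3 (others 28.9 to 39.5). Notch1 was at 61.9 CPM in CBD neutral-cue library 5 (others 41.2 to 49.2), and Notch3 at 45.7 CPM in vehicle neutral-cue library 2 (others 23.5 to 32.5).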

How the results depend on the processing

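Of the 28 member results open to a test, none passed an adjusted p of 0.05 in edgeR or DESeq2 under 9 other settings or without any 1 of the 32 libraries (lowest adjusted p 0.389 and 0.167). With estimates near 0, 16 of 252 values changed sign under the other settings and 35 of 896 without a library, and the cause was not tested. The lowest count of a member was 39 reads, for Mfng, whose counting error is thus the largest. With DESeq2's size factors in edgeR, the counts above and below 0 printed for gene lists (Notch proteolysis, receptors and the marker lists) stayed the same.

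For CBD under the neutral cue, genes called were 349 of 17059 by DESeq2, 4 when only the 2 groups compared were fitted and 18 without the libraries high in Slc17a6 or Slc17a7. In each of these 3, 1 gene of the wider list and 1 member was called, and it was Mfng. Leaving out 1 library gave 0 to 165 genes (165 without vehicle anxiety-cue library 5, 68 without vehicle anxiety-cue library 4), 0 to 1 of the wider list and 0 to 1 of the members, which was Mfng. Since Mfng was chosen by this comparison, its calls under these settings are a description and support nothing. Mfng moved to -0.612 with composition covariates. For the cue in vehicle libraries, 12 genes were called without the tissue libraries and none of the wider list.

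For CBD under the anxiety cue, Mfng was at 0.0762 without the tissue libraries and 0.0724 with Alb and Plin1 as covariates, Notch1 at 0.00342 with composition covariates and 0.0115 with Alb and Plin1, and Hes5 at 0.128 with composition covariates. Without single libraries, Mfng ranged from -0.189 to 0.205 (the latter without vehicle anxiety-cue library 5), Notch1 from -0.0659 to 0.0167, Notch2 from -0.00639 to 0.145, Jag1 from -0.140 to 0.00666 and Hes5 from -0.0847 to 0.0174.

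For the cue in vehicle libraries, Hes5 was at -0.0968 with composition covariates and -0.146 without the tissue libraries, and Jag1 at -0.0594 without them. Without single libraries Jag1 ranged from -0.0625 to 0.174 and Hes5 from -0.0302 to 0.169. For the cue in CBD libraries, no filter gave Notch3 at 0.00489 and Hey1 at 0.00974, composition covariates gave Jag1 at 0.0146, Hes5 at 0.0475 and Hey1 at 0.0896, leaving out the tissue libraries gave Jag1 at 0.0184 and Hey1 at 0.0398, and Alb and Plin1 gave Hey1 at 0.00708. Without single libraries the ranges were -0.0421 to 0.0459 for Rfng, -0.0488 to 0.0404 for Notch3, -0.116 to 0.0229 for Dll1, -0.176 to 0.0180 for Jag1 and -0.0382 to 0.0366 for Hey1.

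No paired analysis was possible because the labels give no replicate numbers that link libraries across groups.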
